A study of Homo sapiens with 6 samples.

Results

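The proteasome is the barrel-shaped protease that degrades proteins marked with ubiquitin. Its 20S core is built from rings of α subunits (PSMA genes) and β subunits (PSMB genes), and the β rings carry the cutting sites. The 19S cap holds ATPases that unfold the substrate (PSMC genes) together with a scaffold, ubiquitin receptors and a lid that removes ubiquitin (PSMD genes), and other proteins activate the core (PSME), bind it (PSMF1) or help it assemble (PSMG). In many cell types the genes of the core and the cap are expressed together.

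The genes described here are the rows of the count table whose symbol is PSMA, PSMB, PSMC, PSMD, PSME, PSMF or PSMG followed by a number. The pseudogenes and the immunoproteasome genes PSMB8, PSMB9 and PSMB10 were left out. This gave 45 genes of 54261, and 43 of them passed the filter on low counts and entered the test, among 13896 genes in all. The 2 that did not pass were PSMA8, the testis form of an α subunit, with 0 counts in every library, and PSMB11, the thymus form of a β subunit, with 1 count in a single knockdown library. A count of 0 allows up to 3 counts, or 0.149 to 0.171 CPM (counts scaled to library size) at these depths.

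RNA was sequenced from T24, an established human bladder cancer cell line, in 3 libraries with a short hairpin RNA against MTHFD2, a mitochondrial enzyme of folate metabolism (T24-shRNA2), and 3 with a control lentivirus (T24-NC). All cells had been infected with lentivirus carrying ZsGreen and selected with puromycin, and the name of the control construct lists no hairpin. The knockdown group carries a single hairpin sequence, so effects of the target and of the hairpin itself cannot be told apart, and no label tells whether the 3 libraries of a group are separate cultures. The p-values therefore reflect the variation among these libraries alone, part or all of which may be technical. MTHFD2 was at 26.7, 33.6 and 36.7 CPM in the knockdown libraries, against 185, 188 and 181 CPM in the controls, a log2 fold change of -2.51 ± 0.13 (SE; adjusted p = 1.8e-06 in edgeR's quasi-likelihood test with Benjamini-Hochberg adjustment, used throughout unless DESeq2 is named).

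Library totals ran from 17801990 to 19978392 counts. Of the urothelial markers, the simple keratin genes KRT7, KRT8 and KRT18 had at least 2663 counts in every library, while KRT5, KRT19, GATA3, TP63, UPK2 and UPK3A had 6 counts or fewer in each; PPARG, UPK1A and UPK1B lay between. Of the 6 urothelial markers tested, 2 fell and 1 rose, beside 7.58% and 9.71% of all tested genes. The summed level of the 12 on the list moved with the groups. It was 1322, 1003 and 1189 CPM in knockdown replicates 1 to 3, against 2118, 2110 and 2518 CPM in the controls. KRT8 and KRT18 made up most of each sum. Fibroblast markers also moved: 5 of the 7 tested rose and 0 fell, beside 9.71% and 7.58% of all tested genes. The summed level of the 12 on the list was 71.8, 47.3 and 63.8 CPM in knockdown replicates 1 to 3, against 27.9, 31.0 and 23.7 CPM in the controls. All 12 had at least 1 count in some library. In knockdown replicate 2, FBN1 alone made up 35.03 of the 47.3 CPM, and COL1A2, at 1.56 CPM, lay within the control range of 1.37 to 1.66 CPM. Markers of leukocytes and of endothelium summed to between 0.964 and 3.28 CPM in every library.

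Proteasome transcripts lay slightly lower after MTHFD2 knockdown, but few of the genes passed the test one by one. Of the 43 tested, 3 fell at an edgeR adjusted p under 0.05, namely PSMA7, PSMC5 and PSME3, and 0 rose. That is 6.98% falling, close to the background of 7.58% of all tested genes that fell, while 9.71% of all tested genes rose. The log2 fold change (knockdown over control) was below 0 for 39 of the 43, with a median of -0.20, beside 49.2% of all genes below 0 and a median of 0.01. Without knockdown replicate 2 the members' median was -0.13, and without control replicate 3 it was -0.15. The groups overlapped by library. Set against the control mean, the members' median was -0.02 in knockdown replicate 3, above the -0.04 and -0.07 of control replicates 1 and 2. At an unadjusted p under 0.05, 14 members (32.6%) were lower and 0 higher, beside 15.7% and 17.7% of all genes. In bulk RNA a lower level in every cell and fewer cells with the transcript cannot be told apart.

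**Figure D1:**
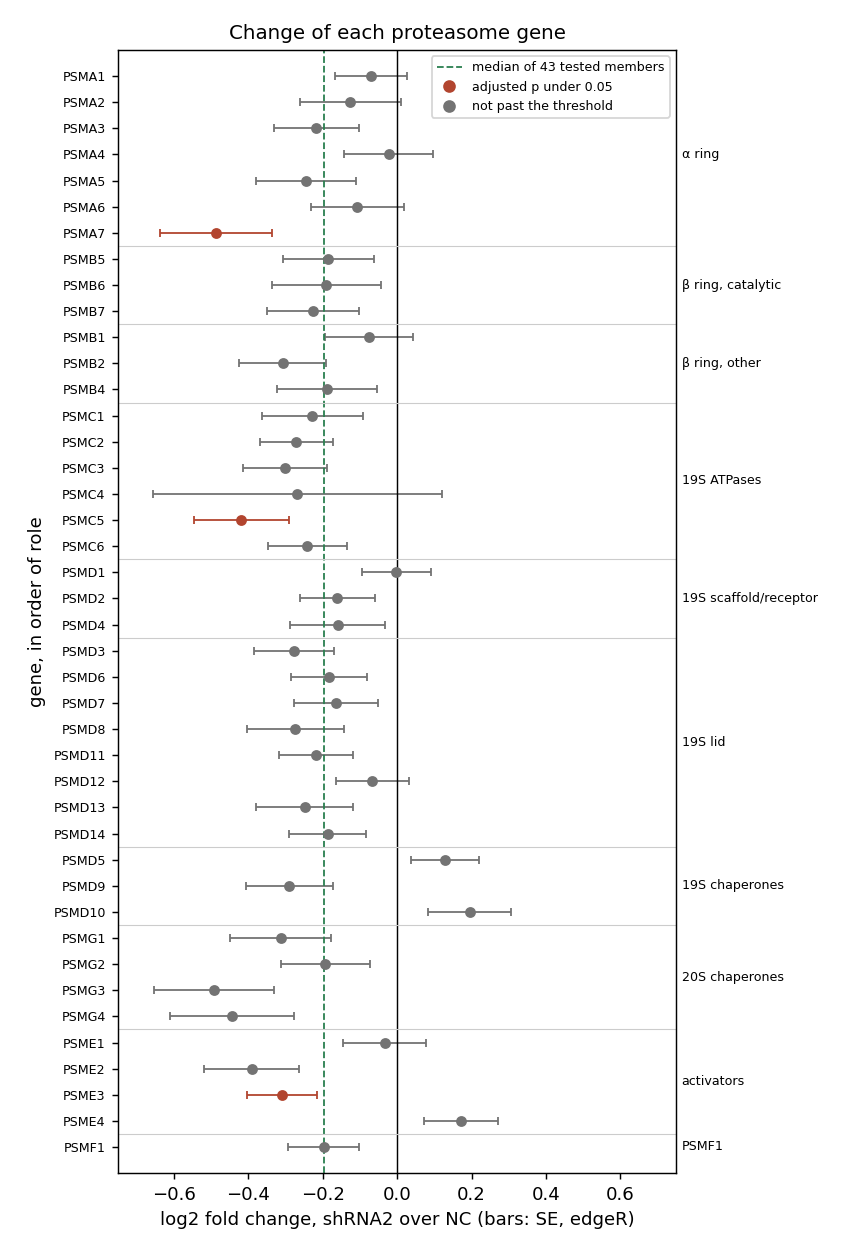
Log2 fold change of each tested proteasome gene, knockdown over control, from edgeR (points, with SE bars), in order of role; PSMB3, at 1.86 ± 1.14, is off the scale and left out. The 3 genes past the threshold are PSMA7, PSMC5 and PSME3, and most points lie left of 0 near the median of -0.20.

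PSMA7, an α-ring subunit, had the largest fall among the members that passed. It lies on GRCh38 chromosome 20, from 62136735 to 62143440 on the minus strand. It was at 424, 306 and 459 CPM in knockdown replicates 1 to 3, against 536, 499 and 634 CPM in the controls. The 3 knockdown libraries were all below the 3 controls, and replicate 2 was the lowest of them. The log2 fold change was -0.49 ± 0.15 (edgeR adjusted p = 0.044), or 0.713 of the control level.

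PSMC5 encodes an ATPase of the 19S base (chromosome 17, 63827152 to 63832026, plus strand). Its levels were 273, 207 and 262 CPM in the knockdown libraries, against 314, 305 and 372 CPM in the controls. The groups did not overlap, and the log2 fold change was -0.42 ± 0.13 (edgeR adjusted p = 0.041). PSME3 encodes the nuclear activator PA28γ, which opens the core without ATP (chromosome 17, 42824385 to 42843758, plus strand). It was at 260, 237 and 240 CPM in the knockdown libraries, against 303, 303 and 308 CPM in the controls, with little spread inside either group. Its log2 fold change was -0.31 ± 0.09 (edgeR adjusted p = 0.042).

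None of the 3 calls held up when certain libraries were left out. Without knockdown replicate 2, the log2 fold changes of PSMA7, PSMC5 and PSME3 were -0.33, -0.31 and -0.29, with edgeR adjusted p = 0.103, 0.114 and 0.107. In that run 0 members passed, and 4.36% of all genes were called lower. All 3 calls were also lost without control replicate 1 or control replicate 3, those of PSMC5 and PSME3 without control replicate 2, and that of PSMA7 without knockdown replicate 1 (edgeR adjusted p = 0.073). With no filter beyond 1 count the PSME3 call was lost (edgeR adjusted p = 0.070). DESeq2 called 5 members lower (11.6%, beside 9.20% of all genes), adding the activator subunit PSME2 and the assembly chaperone PSMG3.

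The start regions of PSMC5 and PSME3 are shown because they belong to genes that fell, and that of PSMD5, a chaperone gene described further on, because it was among the 4 members with a higher fitted value after knockdown. Each window runs from 250 bases before the start annotated in RefSeq (GRCh38.p14) to 50 after it, on the gene's own strand. The windows are chr17:63827181-63827480 (plus) for PSMC5, chr17:42833147-42833446 (plus) for PSME3 and chr9:120842873-120843172 (minus) for PSMD5. The gene positions given above are from GENCODE release 29, and the PSMC5 and PSME3 windows lie inside those spans. The starts in these sources thus differ for both genes. Capitals mark the CCAAT box (CCAAT, bound by the factor NF-Y) and the core of the antioxidant response element (TGACNNNGC, bound by NFE2L1 and NFE2L2), searched on both strands. The PSMC5 and PSME3 windows hold 1 CCAAT box each and the PSMD5 window holds 1 antioxidant response element core. These windows do not stand for a split by direction. Of the other members with a higher fitted value, PSMD10 has a CCAAT box only, PSMB3 has both motifs and PSME4 has the core only. The core is also in the windows of PSMD3, PSMD9, PSME2 and PSMG1, which had lower fitted values.
PSMC5: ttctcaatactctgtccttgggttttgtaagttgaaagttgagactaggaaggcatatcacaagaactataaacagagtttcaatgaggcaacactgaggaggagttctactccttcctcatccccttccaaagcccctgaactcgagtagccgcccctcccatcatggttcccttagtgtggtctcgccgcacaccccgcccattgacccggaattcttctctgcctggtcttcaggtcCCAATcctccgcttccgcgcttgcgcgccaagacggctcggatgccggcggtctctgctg
PSME3: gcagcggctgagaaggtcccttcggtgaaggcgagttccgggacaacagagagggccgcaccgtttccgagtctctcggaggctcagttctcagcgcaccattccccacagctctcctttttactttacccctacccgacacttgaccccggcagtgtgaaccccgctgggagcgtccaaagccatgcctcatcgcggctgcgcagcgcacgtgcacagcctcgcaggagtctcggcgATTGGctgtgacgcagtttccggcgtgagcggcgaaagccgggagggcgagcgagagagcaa
PSMD5: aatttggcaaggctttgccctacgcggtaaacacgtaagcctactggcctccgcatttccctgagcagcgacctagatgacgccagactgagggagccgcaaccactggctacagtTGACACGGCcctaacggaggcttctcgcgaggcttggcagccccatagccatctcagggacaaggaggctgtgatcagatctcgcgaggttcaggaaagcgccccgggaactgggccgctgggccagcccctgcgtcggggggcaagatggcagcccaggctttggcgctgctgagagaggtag

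Windows were found for 39 of the 45 genes, taking the first start listed where there was more than 1; PSMA7, PSMB1, PSMB6, PSMB7, PSMD4 and PSMG3 had none. A CCAAT box was in 18 of the 39 windows (46.2%), beside 35.7% of 27305 such windows of all genes. The antioxidant response element core was in 12 (30.8%, beside 13.6%), and the ETS core CCGGAAG in 13 (33.3%, beside 10.7%). The palindromic site of nuclear respiratory factor 1 was in 1 window, that of PSMA4 (2.56%, beside 1.36%). Hits of different motifs overlapped in 0 of the 39 windows. Among the tested genes, the median log2 fold change was -0.13 for the 12 with the antioxidant response element core and -0.22 for the 25 without it. It was -0.24 for the 17 with a CCAAT box and -0.19 for the 20 without, and -0.23 for the 12 with the ETS core against -0.19 for the 25 without.

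The α ring, which gates the entry to the core, had 7 tested genes. Of these 1 fell (PSMA7) and 6 did not pass, and the other 6 log2 fold changes lay between -0.25 and -0.02. PSMA4 was at 255, 242 and 316 CPM in the knockdown libraries, against 263, 261 and 301 CPM in the controls. Its highest value of all was in a knockdown library, replicate 3, and its log2 fold change was -0.02 ± 0.12. PSMA1, the next most abundant by CPM after PSMA7, was at 274, 256 and 290 CPM in the knockdown libraries, against 281, 284 and 295 CPM in the controls, with a log2 fold change of -0.07 ± 0.10.

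The 3 subunits that cut peptide bonds in the constitutive core did not pass. PSMB5 carries the chymotrypsin-like site, the main target of the drug bortezomib. It was at 188, 156 and 199 CPM in the knockdown libraries, against 194, 191 and 233 CPM in the controls, and the groups overlapped (log2 fold change -0.18 ± 0.12; edgeR adjusted p = 0.306). PSMB6, with the caspase-like site, was at 241, 187 and 273 CPM after knockdown, against 257, 233 and 312 CPM in the controls (-0.19 ± 0.15; edgeR adjusted p = 0.385). PSMB7, with the trypsin-like site, was at 224, 194 and 260 CPM after knockdown, against 247, 250 and 297 CPM in the controls (-0.23 ± 0.12; edgeR adjusted p = 0.221). In all 3 genes knockdown replicate 2 was the lowest library and control replicate 3 the highest. Of the structural β subunits 0 of 4 passed: PSMB1 was at -0.08 ± 0.12, PSMB2 at -0.31 ± 0.12 and PSMB4 at -0.19 ± 0.14 on the log2 scale, and PSMB3 is described further on.

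**Figure D2:**
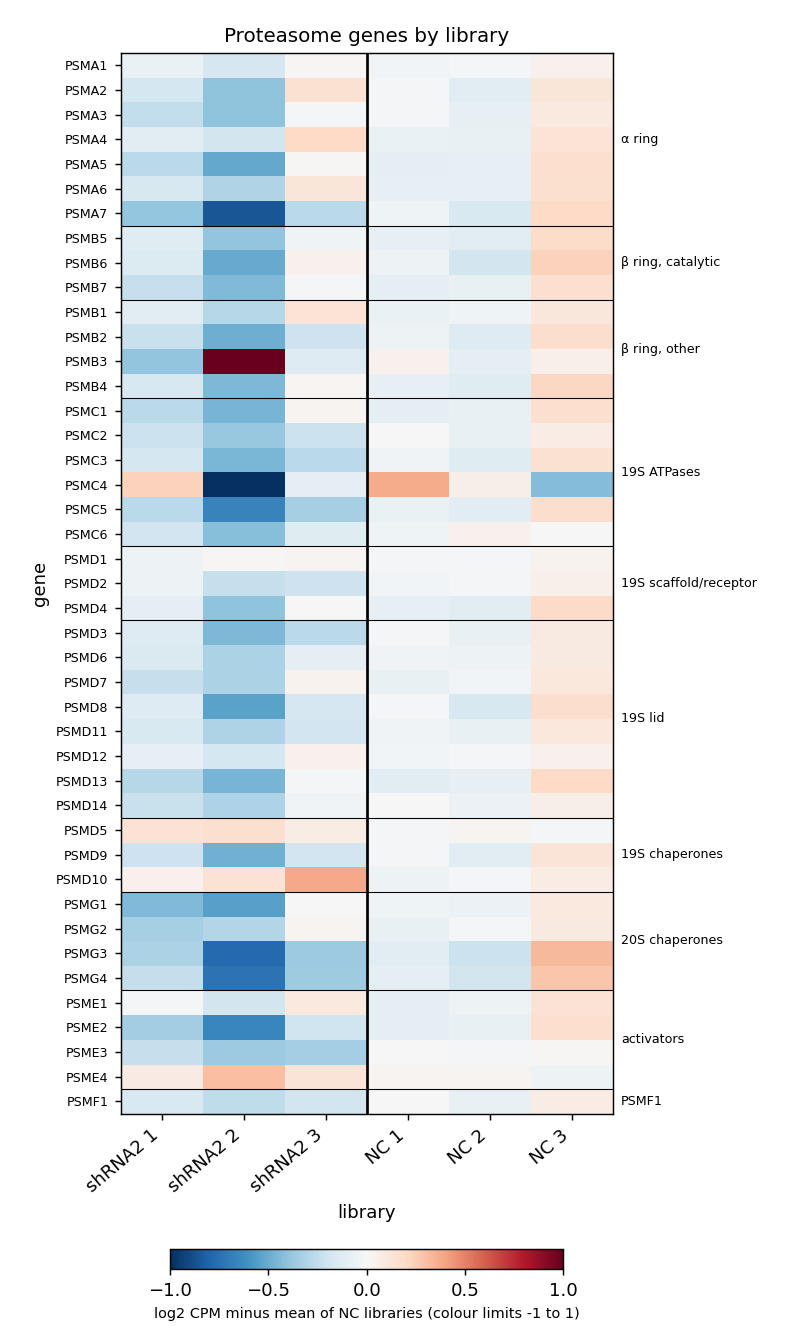
Log2 CPM of the 43 tested proteasome genes in each library, minus the mean of the 3 control (NC) libraries, by role; red is higher and blue lower, with colours limited to -1 and 1. Knockdown replicate 2 is the lowest library for 37 genes and control replicate 3 the highest for 34, and PSMD5, PSMD10 and PSME4 are above the control mean in all 3 knockdown libraries.

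In the 19S cap, all 17 tested subunits of the base and lid had a log2 fold change below 0, and 1 of them, PSMC5, passed. The ATPase ring had the lowest median of the 26S subunit groups: its 6 genes had a median of -0.27, and 4 of them were lower in every knockdown library than in any control, as were 18.97% of all tested genes. PSMC3, another of these ATPases, was at 286, 236 and 269 CPM in the knockdown libraries, against 316, 298 and 361 CPM in the controls. Its log2 fold change of -0.30 ± 0.11 did not pass (edgeR adjusted p = 0.086). PSMC2, also of this ring, was at 128, 115 and 128 CPM after knockdown, against 149, 142 and 157 CPM in the controls (-0.27 ± 0.10; edgeR adjusted p = 0.078).

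PSMD1, a large scaffold subunit, had a log2 fold change of -0.0023 ± 0.093. It was at 291, 304 and 306 CPM in the knockdown libraries, against 296, 297 and 308 CPM in the controls. The lid had 8 tested genes with 0 calls and a median of -0.20. PSMD14 encodes the enzyme of the lid that strips ubiquitin from substrates. It was at 207, 195 and 236 CPM after knockdown, against 243, 231 and 251 CPM in the controls, with a log2 fold change of -0.19 ± 0.10 (edgeR adjusted p = 0.224).

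The chaperones of assembly went in both directions by their fitted values, and 0 of 7 passed. PSMG3 and PSMG4, which help to assemble the α ring, had log2 fold changes of -0.49 ± 0.16 and -0.44 ± 0.17, with edgeR adjusted p = 0.056 and 0.088. PSMG3 was at 33.1, 24.05 and 32.0 CPM after knockdown, against 38.3, 35.5 and 51.5 CPM in the controls. It thus had a lower fitted value than PSMA7 while lying just outside the threshold. For PSMG3, the call was made by DESeq2 (adjusted p = 0.023).

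Another pair of chaperones, those of the 19S base, lay on the other side of 0. PSMD5 was at 128, 130 and 122 CPM after knockdown, against 114, 118 and 115 CPM in the controls, and PSMD10 (gankyrin) was at 71.5, 76.9 and 90.3 CPM, against 66.9, 68.4 and 73.1 CPM. Their log2 fold changes of 0.13 ± 0.09 and 0.20 ± 0.11 did not pass (edgeR adjusted p = 0.351 and 0.239). PSMD9, also a chaperone of the base, was at -0.29 ± 0.12 on the log2 scale (edgeR adjusted p = 0.105). These chaperones, and PSMA1, PSMA4, PSMB1 to PSMB4, PSMC2, PSMC3 and PSMD1, were chosen for description after their values were seen.

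The activators differed among themselves in fitted value. PSME1 and PSME2 form the interferon-inducible PA28αβ ring and lie close together on chromosome 14. PSME1 was at 96.4, 86.4 and 105 CPM after knockdown, against 91.3, 94.6 and 108 CPM in the controls (-0.03 ± 0.11; edgeR adjusted p = 0.856). PSME2 was at 111, 89.6 and 123 CPM, against 132, 134 and 159 CPM, with no overlap between the groups (-0.39 ± 0.13; edgeR adjusted p = 0.056; DESeq2 adjusted p = 0.027). PSME4, which encodes the activator PA200, was at 106, 124 and 110 CPM after knockdown, against 103, 102 and 97.1 CPM in the controls. Its log2 fold change was 0.17 ± 0.10 (edgeR adjusted p = 0.247). PSMF1 (PI31), which binds the core, was at 147, 136 and 143 CPM, against 162, 155 and 172 CPM (-0.20 ± 0.10; edgeR adjusted p = 0.168).

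By library, the members moved together, and the spread inside each group was wide. Set against the mean of the controls on the log2 CPM scale, their median was -0.17, -0.40 and -0.02 in knockdown replicates 1 to 3, against -0.04, -0.07 and 0.11 in control replicates 1 to 3. The groups overlapped: knockdown replicate 3 lay above 2 of the 3 controls. The median of all tested genes stayed between -0.0035 and 0.013 in the 6 libraries. Knockdown replicate 2 was the lowest of the 6 libraries for 37 of the 43 members (86.0%), beside 27.1% of all genes, and control replicate 3 was the highest for 34 (79.1%), beside 26.0%.

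**Figure D3:**
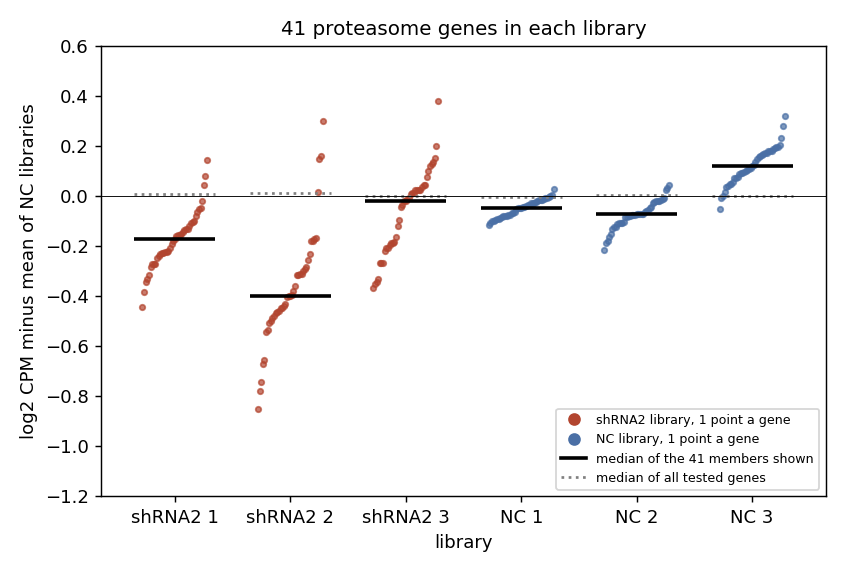
Log2 CPM of 41 proteasome genes in each library minus the mean of the controls, 1 point a gene, with their median (solid bar) and the median of all tested genes (dotted); PSMB3 and PSMC4 are left out for their low counts. The solid bar is at -0.40 in knockdown replicate 2 and 0.12 in control replicate 3, while knockdown replicate 3, at -0.02, lies among the controls.

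The knockdown libraries were all below the controls for 16 members (37.2%), beside 18.97% of all genes, and all above them for 2 (PSMD5 and PSME4), beside 20.1%. Knockdown replicate 2, the lowest library for most members, also had the lowest summed level of the urothelial markers of all 6 libraries, 1003 CPM, and the lowest of the fibroblast markers within the knockdown group, 47.3 CPM. The part of these markers in the proteasome values was not tested. The summed level of the 45 genes was 7585, 6629 and 8113 CPM in the knockdown libraries, against 8263, 8085 and 9316 CPM in the controls, or 7442 ± 752 and 8555 ± 665 CPM (SD, n = 3 each). These sums overlap between the groups, and the ratio of their means, knockdown over control, was 0.870 on TMM-scaled totals. Of unscaled counts, the members made up 0.763 ± 0.0602% after knockdown and 0.831 ± 0.0414% in the controls (SD, n = 3 each). That ratio was 0.918, and these percentages also overlap between the groups. The TMM factor was highest in knockdown replicate 2 (1.06) and lowest in control replicate 3 (0.943). The part of this scaling in the proteasome values was not tested.

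Spearman's rho of the fold change with transcript length was 0.28 over the 11450 tested genes with a known length (82.4%). It was -0.01 over the 41 members other than PSMB3 and PSMC4, which are left out of this comparison for their low counts. Pearson's r with log2 length was 0.22 over all these genes and 0.15 over the 41 members, so the gap depends on the measure. Among all genes, shorter ones had lower fold changes: the median log2 fold change was -0.17 for 863 genes with a transcript of up to 1000 bases, and 0.15 for 2913 genes over 4000 bases. Of the 41 members, the 12 of up to 1000 bases had a median of -0.19, near that of all genes of this length. The 8 members of 1001 to 1500 bases were at -0.18, beside -0.09 for 1249 genes, and PSME4, the 1 member over 4000 bases, was at 0.17. The 10 members of 1501 to 2500 bases were at -0.26, beside -0.05 for 3319 genes, and the 10 of 2501 to 4000 bases at -0.22, beside 0.03 for 3106 genes. With GC content, rho was -0.42 over the same 41 members and -0.26 over 12532 genes. These are descriptions across genes that share the same 6 libraries, and the part of length or GC content in the result was not tested.

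Levels between genes were compared per kilobase of transcript. PSMA7 was the highest member, at 429 ± 86.6 CPM per kilobase after knockdown and 601 ± 75.7 in the controls (SD, n = 3 each). PSMB4 followed with 355 ± 57.0 after knockdown and 404 ± 51.5 in the controls. By the control mean PSMB6 was next, with 272 ± 50.5 after knockdown and 310 ± 46.8 in the controls, but after knockdown PSMA4 was above it, with 287 ± 41.6, against 291 ± 24.1 in the controls; these 2 genes differed by less than their spread. PSMA7, PSMB6 and PSMB4 also had the highest control means when the union of all exons was used as length. Apart from PSMB3 and PSMC4, the subunits and regulators that were tested lay between 14.2 and 601 CPM per kilobase in the controls. PSME4 was the lowest of these, followed by the 19S ATPase PSMC1 at 18.8. The assembly chaperones PSMG3, PSMG4 and PSMD9 averaged 41.5, 22.2 and 27.1 CPM per kilobase in the controls. Other chaperones were higher: PSMG1, PSMG2, PSMD5 and PSMD10 averaged 60.3, 60.0, 75.4 and 89.2. The genes lowest of all were PSMA8 and PSMB11, at or near 0, and PSMC4.

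**Figure D4:**
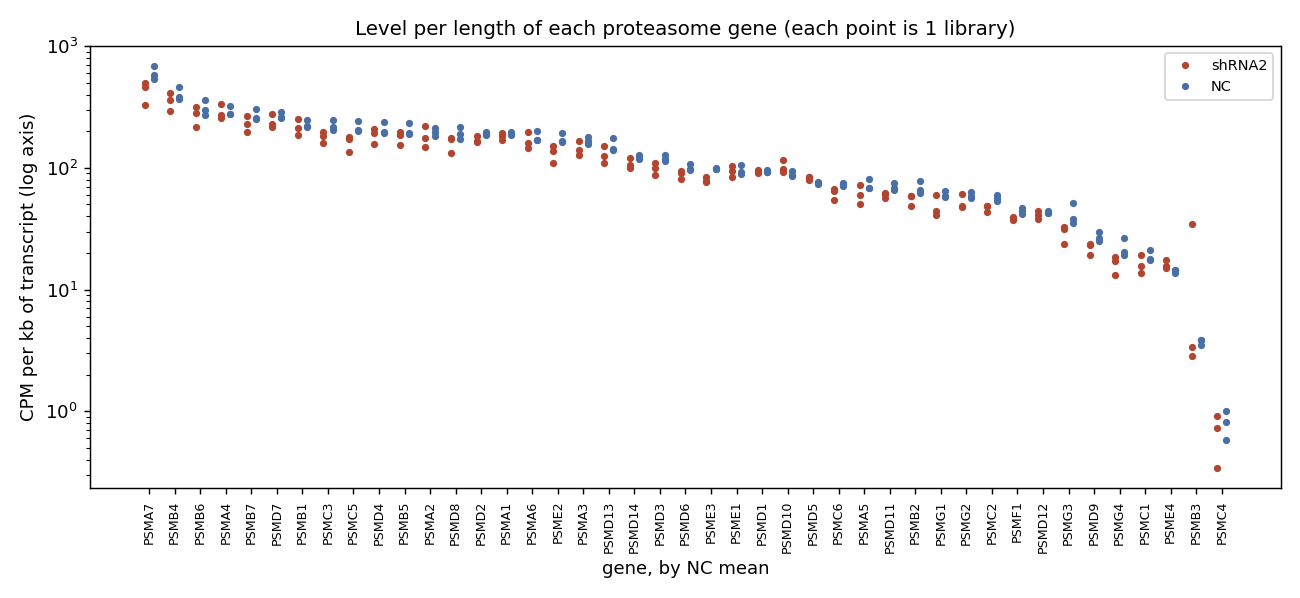
Level of 43 proteasome genes in CPM per kilobase of transcript on a log axis, ordered by the control mean; each point is 1 library, knockdown left and control right. PSMA7 leads, and PSMB3 and PSMC4 lie far below the rest, with a single knockdown library of PSMB3 standing above the others.

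PSMB3 and PSMC4 stood apart. Both encode subunits that every 26S proteasome contains, yet PSMC4, a 19S ATPase, had 27, 10 and 20 counts in the knockdown libraries, against 26, 23 and 16 in the controls, and PSMB3, a β subunit, had 44, 526 and 49 counts, against 52, 52 and 56. PSMB3 was between 2.19 and 2.97 CPM in 5 libraries and at 26.5 CPM in knockdown replicate 2. Its log2 fold change of 1.86 ± 1.14 did not pass (edgeR adjusted p = 0.317), and it was -0.26 without that library. The median over the members was -0.20 with both genes and without them.

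Their neighbours on the chromosome were low as well. Of the 7 protein-coding genes on the left of PSMB3 on chromosome 17, the highest count in any library was 116, in SOCS7, while RPL23, 4 genes to its right, had 12718 to 16605. PIP4K2B, the next gene to the right, had 45, 129 and 29 counts in the knockdown libraries, against 50, 43 and 47 in the controls, so its highest value was in the same library as that of PSMB3. Near PSMC4 on chromosome 19, FBL, which encodes the abundant nucleolar protein fibrillarin, had 29 to 32 counts in the knockdown libraries and 20 to 33 in the controls, and AKT2, 7 genes further on, had 2115 to 3100. The sources used here do not say how reads from these stretches were assigned, and the values of PSMB3 and PSMC4 are uncertain as measures of expression.

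**Figure D5:**
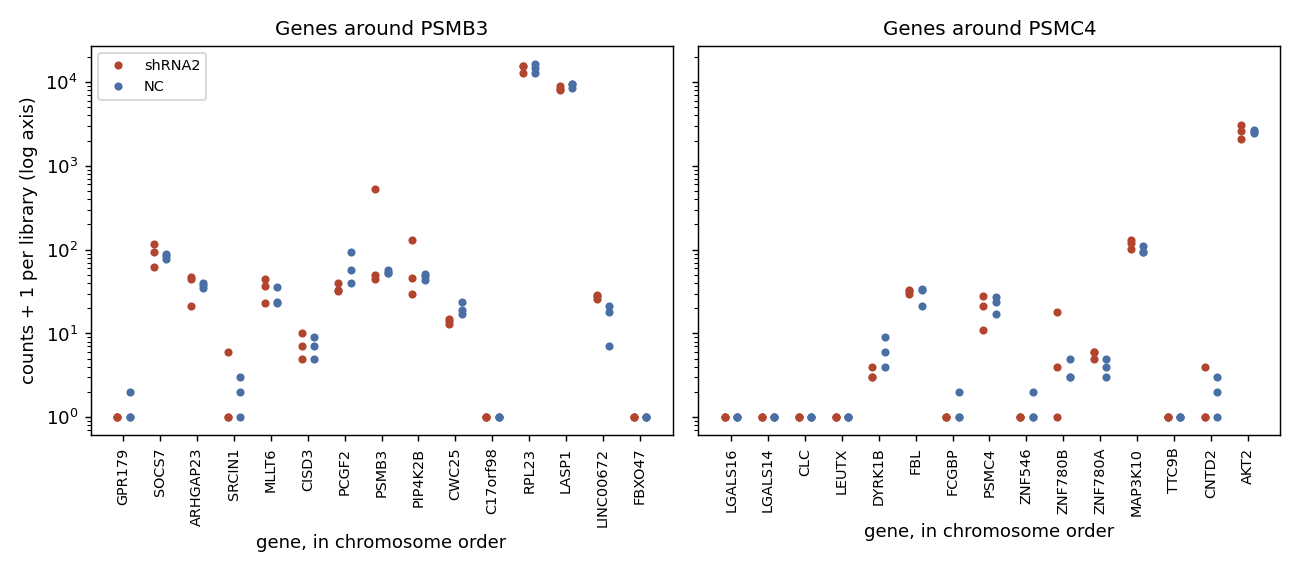
Counts plus 1 per library (log axis) of PSMB3, PSMC4 and the 7 protein-coding genes on either side of each, in chromosome order; knockdown points left, control right. Most neighbours have under 130 counts, while RPL23, LASP1 and AKT2 have 2115 or more, and PSMB3 and PIP4K2B each have 1 high knockdown library.

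Other members may share reads with near-identical copies or opposite-strand genes, and whether counting used strand is not given in the labels. The pseudogene PSMC1P1 had 451 to 533 counts after knockdown and 506 to 627 in the controls, against 787 to 1039 and 901 to 1155 for PSMC1 itself, so the level of PSMC1 is uncertain. PSMA3-AS1 had 518 to 602 counts after knockdown and 585 to 595 in the controls, and PSMD5-AS1 had 353 to 394 and 276 to 353. The other pseudogenes of these families had 71 counts or fewer in any library.

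A list of 48 other genes of the ubiquitin-proteasome pathway was set beside the members. Of the 46 tested, 6 fell and 1 rose, or 13.0% and 2.17%, with a median log2 fold change of -0.11, beside 7.58% and 9.71% of all tested genes and their median of 0.01. Among subunits with other symbols, ADRM1, which encodes a ubiquitin receptor of the 19S cap, fell by 0.44 ± 0.13 on the log2 scale: it was at 263, 194 and 217 CPM in the knockdown libraries, against 300, 273 and 343 CPM in the controls (edgeR adjusted p = 0.038). POMP, the chaperone that drives assembly of the β rings, was at 152, 132 and 201 CPM, against 201, 198 and 241 CPM, and did not pass (-0.40 ± 0.15; edgeR adjusted p = 0.082). SHFM1, the older symbol of the small lid subunit SEM1, was at -0.32 ± 0.16 (edgeR adjusted p = 0.183).

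The immunoproteasome genes gave little to compare. PSMB10, the inducible counterpart of PSMB7, fell: it was at 28.5, 17.3 and 26.2 CPM after knockdown, against 35.2, 33.7 and 44.7 CPM in the controls (-0.66 ± 0.18; edgeR adjusted p = 0.027). PSMB8 and PSMB9 were listed at 0 counts in all 6 libraries, as was their neighbour TAP1, and TAP2 had 26 to 57 counts. BRD2, a widely expressed gene 5 genes further on, had 2 to 7 counts in the knockdown libraries and 3 to 40 in the controls. As with PSMB3 and PSMC4, how reads from this stretch were assigned is unknown, and the zeros are uncertain as measures of expression.

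Of the factors that control proteasome genes, NFE2L1, which raises their transcription when proteasome activity drops, was at 326, 299 and 242 CPM after knockdown, against 342, 357 and 341 CPM in the controls. The groups did not overlap, but the log2 fold change of -0.26 ± 0.12 did not pass (edgeR adjusted p = 0.141). Its small partner MAFF fell by 0.74 ± 0.13 on the log2 scale, with 28.6, 22.5 and 24.2 CPM after knockdown, against 44.9, 37.7 and 42.97 CPM in the controls (edgeR adjusted p = 0.0034). NFYC, a subunit of the factor that binds CCAAT boxes, fell by 0.44 ± 0.11 on the log2 scale, with 57.1, 49.5 and 52.4 CPM after knockdown, against 72.0, 66.9 and 77.4 CPM in the controls (edgeR adjusted p = 0.017). Of the 9 factors and processing genes on that list 2 fell (22.2%) and 0 rose, beside 7.58% and 9.71% of all tested genes.

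Of 8 shuttle factors 1 fell and 1 rose, and of 6 ligases and deubiquitinases bound to the proteasome 1 fell and 0 rose. Of all tested genes 7.58% fell and 9.71% rose. ZFAND5, a zinc finger protein that stimulates the 26S proteasome, rose: it was at 371, 452 and 442 CPM after knockdown, against 323, 321 and 307 CPM in the controls, a log2 fold change of 0.41 ± 0.11 (edgeR adjusted p = 0.023). Its relative ZFAND2A, an arsenite-inducible protein, fell by 0.64 ± 0.15, to 9.69, 7.36 and 8.999 CPM after knockdown, against 13.5, 13.0 and 14.2 CPM in the controls (edgeR adjusted p = 0.013). The 8 shuttle factors had a median log2 fold change of 0.13, with 6 above 0 and 2 below. In 5 of them every knockdown library was above every control, beside 20.1% of all tested genes. In 2 every knockdown library was below, beside 18.97%. The ubiquitin ligase gene KCMF1 fell by 0.35 ± 0.10, with 88.3, 79.7 and 86.8 CPM after knockdown, against 106, 106 and 113 CPM in the controls (edgeR adjusted p = 0.030). Of the 6 ubiquitin genes and activating enzymes, of the 6 genes around the segregase VCP and of the 6 import factors and regulators, 0 passed in either direction by edgeR. At an unadjusted p under 0.05 these counts were 0, 2 and 1, all lower, beside 15.7% of all tested genes lower. Of the 7 calls in the pathway list, only that of MAFF passed with each of the 6 libraries left out in turn. The other 6 were lost without control replicate 1 and without control replicate 3. ZFAND5 and KCMF1 were also lost without control replicate 2 and without knockdown replicate 2, and ADRM1 without knockdown replicate 2 and without knockdown replicate 3.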

How the data were processed

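RNA sequencing counts of 6 T24 libraries were used, in 2 groups of 3 taken from the titles. The deposited table holds unnormalized whole-number counts for each gene symbol; HISAT2 2.0.4 and GRCh38 are named per the submitters' processing notes, and how reads were counted, with which annotation, strand setting and filters, is not given in the sources used here. After filterByExpr and TMM scaling, edgeR's quasi-likelihood F test was run (edgeR 4.0.16, limma 3.58.1, R 4.3.3) on 13896 genes, with Benjamini-Hochberg adjustment and a threshold of 0.05. SE was taken as the log2 fold change over √F; CPM is on TMM-scaled totals, with a prior count of 2 for log2 CPM. DESeq2 1.42.0 and other filters, scaling and left-out libraries were alternatives. Positions and lengths came from GENCODE release 29 (GRCh38); the length was the median protein-coding transcript, chosen after seeing that the union of exons was several times longer. Floors cover counting error only, while the SE and SD also take in variation between libraries.

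Libraries of a group differed by more than counting error, so none was merged as a duplicate deposit. The chi-square per degree of freedom was 2.56 for control replicates 1 and 2, and 10.8 to 31.6 for the other pairs within a group. Control replicates 1 and 2 were thus the closest pair, and no label tells whether they are separate cultures. The members and lists were chosen with earlier results of these data known. Genes named are MTHFD2, those past the threshold, catalytic subunits, PSMD14, activators and PSMF1, the 3 highest and lowest levels; of other lists up to 3 per direction, POMP, NFE2L1 and PSMB8 to PSMB10; others were chosen after their values were seen. The test was checked on simulated data.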

Additional observations from a re-analysis of the deposited data

How the results depend on the processing

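RLE scaling and a filter of 1 CPM in 3 libraries left 3 members lower and 0 higher. That is 6.98% lower in both runs, beside 7.82% and 8.09% of all genes. DESeq2 gave 5 lower (11.6%, beside 9.20% of all genes), as did dropping the filter beyond 1 count (11.4%, beside 5.44%). A threshold of 0.01 gave 0, beside 1.99% of all genes lower. Leaving out single libraries gave 0 to 8 members lower, over all genes 368 to 1213 lower and 600 to 1468 higher, and for the other pathway genes 1 to 8 lower and 0 to 1 higher. At 0.01, 277 genes were lower and 472 higher, with 1 and 0 of the other pathway genes. With knockdown replicate 2 alone, 2220 genes were lower and 2212 higher, members 25 and 1, other pathway genes 15 and 2 (its spread is taken from the controls alone, and it was already the lowest library for 37 members, so these counts add no independent evidence), and the members' median was -0.41.

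With the replicate number as a block, 2496 genes were lower and 2566 higher, 19 members lower (44.2%, beside 17.96% of all genes) and 13 other pathway genes lower. Whether the numbers pair the libraries is not given in the labels, and the correlations do not settle it. Same-numbered libraries correlated in their deviations from the group means at -0.02, 0.30 and 0.35. Knockdown replicates 2 and 3 each correlated best with the control of their own number, but knockdown replicate 1 did so with control replicate 3 (0.05). The members' median was below 0 in every alternative run: -0.30 to -0.13 with single libraries left out, and -0.20 without PSMB3 and PSMC4, a choice made after seeing the data.

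Signs turned for members that did not pass: over left-out libraries PSMA4 ran from -0.15 to 0.050, PSMB1 from -0.20 to 0.018, PSMB3 from -0.26 to 2.34, PSMC4 from -0.58 to 0.043, PSMD1 from -0.020 to 0.019 and PSME1 from -0.11 to 0.041. PSMD1 was 0.0030 with the 1 CPM filter and 0.0076 with knockdown replicate 2 alone. The cause of these shifts was not tested. Low counts limit the precision for PSMC4 and, in 5 libraries, PSMB3; why they are low was not tested.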
